A study of Zea mays and Triticum urartu with 3 samples.

Results

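In young leaves of *Triticum urartu*, a wild diploid wheat, 2276 unannotated loci were chosen as candidates for long noncoding RNA, out of 45337 loci listed for the library and 136722 in the 3 tables of the series. They were selected on measured values and on position. Each was assembled from the sequencing reads without a gene identifier, spanned at least 300 bp, had an FPKM above 0 with status OK, and overlapped no locus with a TuG1812 identifier, the name given to annotated genes of this wheat. FPKM is the number of sequenced fragments scaled to transcript length and to library size. Of 7939 unnamed assembled loci, 3135 spanned 300 bp or more, and all of these had status OK and an FPKM above 0. Overlap with a TuG1812 locus removed 830, which left 2305. A last limit removed 29 loci at which a single fragment stood for more than 100000 FPKM. The number of fragments behind an FPKM was read from its upper confidence limit, which lies 2 times the square root of the fragments above the value when both are given in fragments. Below it is named the implied fragments, and it holds only where the limit covers counting error alone. Because span, overlap and FPKM per fragment chose the loci, these measures are given as description.

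The study compared RNA bound to maize centromeres with input RNA and added this wheat library. It has 3 libraries with 1 in each group: RNA of maize line B73, taken from young leaves and precipitated through CENH3, a histone that marks active centromeres (B73 RIP), RNA of the same line and tissue listed with no antibody (B73 input), and total RNA of young leaves from the *T. urartu* genotype TMU38. The wheat library was titled an lncRNA library and was used in the study to look for back-spliced retrotransposon RNA. The labels give it the same extraction text as the precipitated sample but name no antibody for it, so how it was made is unclear from them. The wheat group is this single library, so no test was made between conditions, and every interval below covers counting error over fragments or over loci only.

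Long noncoding RNAs are transcripts longer than 200 nucleotides that have no apparent protein product. In plants many are made from the stretches between genes by RNA polymerase II, and they tend to be shorter, with fewer exons, than messenger RNAs. Some have roles in flowering time and gene silencing. An unannotated transcript can also be part of a missed gene, of the untranslated end of a known gene or of a transposon. The tables give the position and level of each locus but no strand, exon or coding potential. The loci are therefore candidates by position and span alone, not by the length of a transcript. The leaf origin of the library was not checked against marker genes, because the files do not pair TuG1812 identifiers with gene names.

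The 2276 loci were short. The median span was 503.5 bp (95% rank interval 487 to 520), the quartiles were 358.75 and 874.5 bp, and the longest reached 37420 bp. Annotated loci of at least 300 bp with an FPKM above 0, of which there were 14985, had a median span of 3721 bp. At the lower limit of span, 12 of the chosen loci measured exactly 300 bp, and 24 unnamed loci measured 299 bp and fell outside. The candidates were therefore crowded at the lower end of the lengths that the choice allowed.

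A length of the transcript itself could be implied from the values, for a locus with a single transcript. Cufflinks scales fragments by an effective length, so the fragments that correspond to 1 FPKM depend on transcript length alone within a library. At 300 bp, 1 FPKM stood for 0.997 fragments, at 350 bp for 1.92 and at 400 bp for 3.0, so the same FPKM stood for more fragments at a longer transcript. Inverting this relation gave each locus an implied transcript length. The relation was drawn from loci of this same library, candidates included. At a given span, loci that agreed at the highest fragments per FPKM were taken to fill it. Loci that set the relation were thus contiguous, as defined next, by construction. In 1481 loci (65.1%, Wilson 95% interval 63.1 to 67.0) the implied length was at least 99.9% of the span, and these are named contiguous. The other 795 loci (34.9%) had an implied length shorter than the locus and are named gapped. An intron would leave such a gap, but no splice junction is given in the tables, and separate transcripts grouped in a locus could not be told apart from it. The implied fragments were whole at 530 of the 795 gapped and at 1250 of the 1481 contiguous loci. At the others the given values may be too rounded to tell, or the limits may be wider than counting error. Wider limits would also shorten the implied length, and this was not tested. The separation was sharp, with 55 loci at 90 to 99.9% of their span, 405 under 50% and 36 under 10%.

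**Figure D1:**
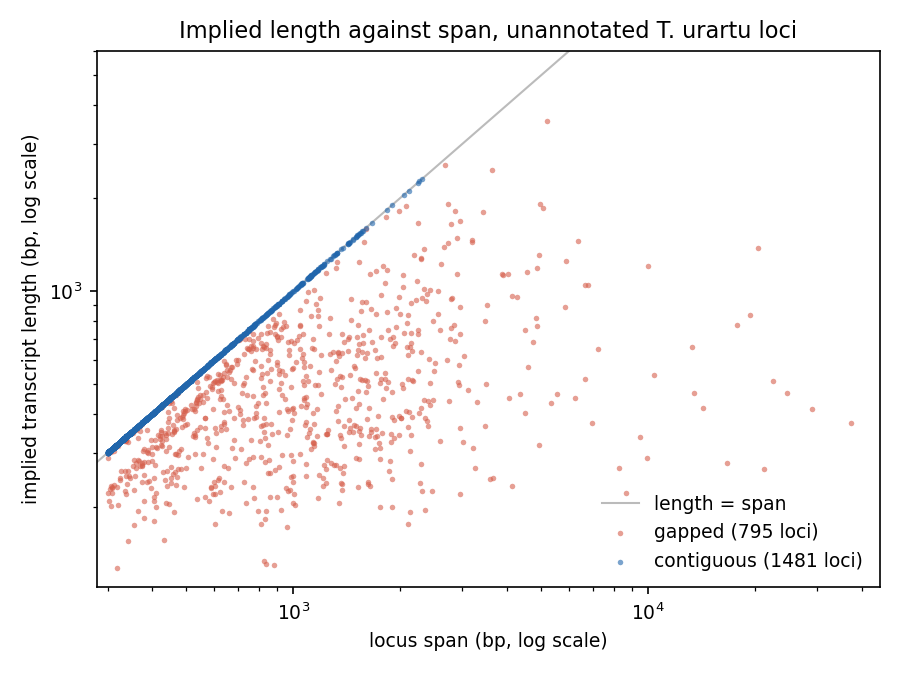
Implied transcript length in bp against locus span in bp for the 2276 unannotated loci, both on log scales, each point a locus. The 1481 contiguous loci lie by definition on the line where length equals span. The 795 gapped loci lie under it, with implied lengths that stay mostly under 1000 bp up to a span of 37420 bp.

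Gapped and contiguous loci had nearly the same implied length, with medians of 418 and 417 bp, although their median spans were 970 and 417 bp. The gap had a median of 476 bp (397 to 558) and quartiles of 131 and 1143 bp. It was 1000 bp or more at 238 loci and 5000 bp or more at 25. The longest loci were thus those with the longest gaps rather than those with long implied transcripts. The longest, Tu7:311277541-311314960, spanned 37420 bp with an implied transcript of 374 bp and 608 fragments, at 252 FPKM (limits 231 to 272). The next 3 were Tu3:667176832-667205915 with 415 of 29084 bp, Tu6:3627926-3652514 with 468 of 24589 bp, and Tu6:347815919-347838359 with 511 of 22441 bp. Their levels were 13.4, 268 and 17.4 FPKM.

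The share of contiguous loci fell with span, from 86.3% (84.2 to 88.2) of the loci under 500 bp to 61.3% (57.6 to 64.9) at 500 to under 1000 bp, 29.3% (24.5 to 34.6) at 1000 to under 2000 bp and 3.05% (1.31 to 6.94) at 2000 bp or more. Annotated loci in the same span classes gave 83.5% (75.1 to 89.4), 67.1% (63.9 to 70.2), 33.3% (31.4 to 35.3) and 2.41% (2.14 to 2.70). In every class the intervals of candidates and annotated loci overlapped. Over all spans, however, 65.1% of candidates and 11.4% of annotated loci were contiguous, and the candidates held far more of the short loci. Overlap of the single intervals does not show that the shares were equal within a span class. The shares lay farthest apart at 500 to under 1000 bp, 61.3 against 67.1%, and the difference was not tested.

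Some loci shared their position with one another. There were 93 overlapping pairs among 178 of the 2276 loci (7.82%), and in 63 pairs one locus lay wholly inside the other. Every one of these pairs held a gapped locus, and 144 of the 178 overlapping loci were gapped. The tables give no strand, so transcripts of opposite strands and transcripts inside the gap of another could not be told apart.

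The levels were modest and narrow at most loci. The median was 12.8 FPKM (12.3 to 13.5), with quartiles of 7.82 and 22.7 and a range of 1.18 to 4387280. All 2276 had at least 1 FPKM, 1429 (62.8%) at least 10, 133 (5.84%) at least 100 and 27 (1.19%) at least 1000. The median number of implied fragments was 40 (38 to 42), with quartiles of 23.0 and 79.0. In this bulk library, low RNA in many cells and high RNA in few cannot be told apart.

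The fragments had a sharp lower end. All but 3 loci held at least 10 fragments, and 10 fragments correspond to about 10 FPKM at 300 bp and to a lower FPKM at longer transcripts. The 3 below this, picked after their values were seen, were Tu4:338838396-338838787 with 1.38 fragments, Tu3:257394241-257395079 with 2.79 and Tu2:485106019-485106465 with 9.36. The lower confidence limit of FPKM was above 0 at 2274 loci. The number of implied fragments was whole, within 0.02, at 1780 loci (78.2%), and not within that tolerance at the others. The values are given to a limited number of digits. At loci with many fragments, rounding alone can exceed 0.02, so these could not be called whole or fractional.

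Against annotated loci, the level depended on the length at which it was compared. Over all lengths, the candidates had a median of 12.8 FPKM and annotated loci with at least 10 fragments a median of 3.35 (3.25 to 3.44). At an implied length of 300 to under 500 bp, the medians were 13.7 (13.0 to 14.3) for 1255 candidates and 12.4 (11.3 to 14.0) for 473 annotated loci, and the intervals overlapped. The median fragments in that class were 29.0 and 35.3. At 500 to under 1000 bp they were 8.42 (7.96 to 9.06) for 667 candidates and 6.08 (5.74 to 6.42) for 3191 annotated loci. At 1000 to under 2000 bp, 143 candidates had 13.6 (11.8 to 17.0) and 6563 annotated loci 3.05 (2.94 to 3.20). The median fragments were 73 and 68 in the class from 500 bp and 326 and 84.0 in the class from 1000 bp. In FPKM the candidates thus stood above annotated loci in the 2 longer classes, but in fragments clearly so only from 1000 bp, and lengths were not matched within a class. The candidates had been selected on being assembled from reads, whereas annotated loci are listed whether or not they were.

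**Figure D2:**
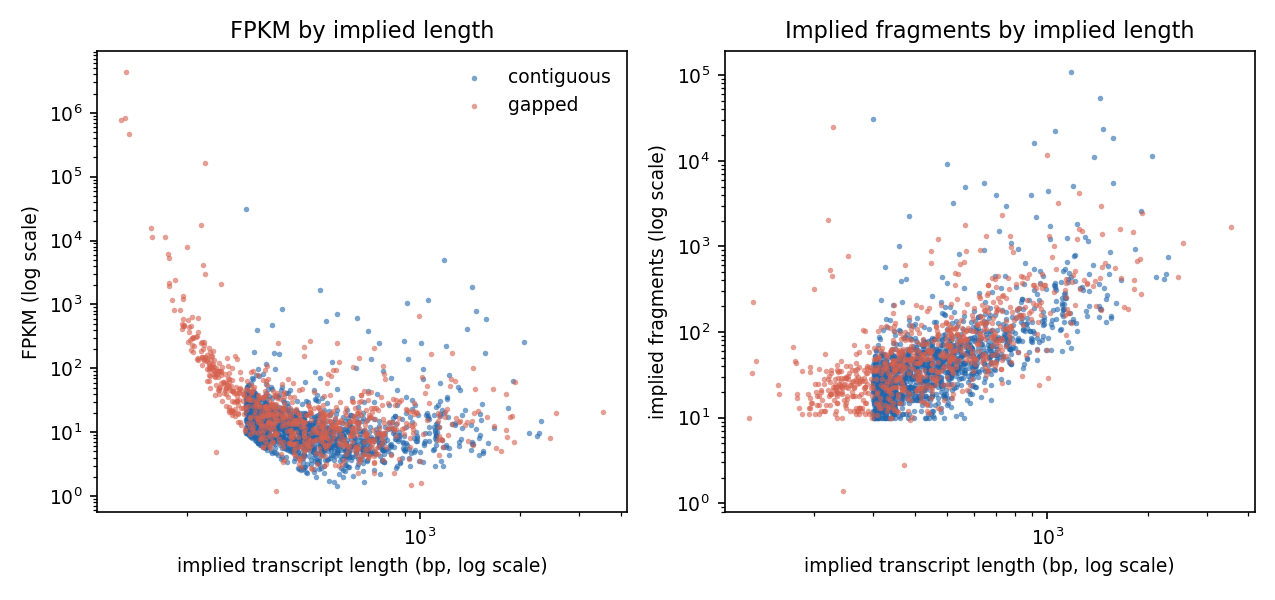
Level of the 2276 unannotated loci by implied transcript length in bp, as FPKM (left) and as implied fragments (right), all axes on log scales, each point a contiguous or gapped locus. FPKM rises steeply under 300 bp while the fragments do not, which the scale of FPKM fixes, and nearly all points lie at or above 10 fragments.

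The highest FPKM stood at the shortest implied lengths. This follows from the scale, since the implied length was itself read from FPKM per fragment, a measure that also chose the loci, and the shares are given as description. The 24 loci with an implied length under 200 bp had a median of 2055 FPKM but 19.0 fragments. By that length they fall short of the 200 nucleotides given above for long noncoding RNA. They made up 95.7% of the summed FPKM of the candidates and 0.182% of their fragments. All 24 were gapped, which the span limit of 300 bp fixed in advance. By contrast, the 143 loci of 1000 to under 2000 bp made up 0.195% of the summed FPKM and 53.4% of the fragments. FPKM therefore could not order these loci by the amount of RNA sequenced, and fragments are given beside it.

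The 6 loci with the highest FPKM among those of at least 500 bp and 10 fragments had implied lengths of 130 to 227 bp. At spans of 500 bp or more, such lengths make all 6 gapped by definition. Tu7:685735387-685736227 had 4387280 FPKM (limits 3803600 to 4970950) from 226 fragments, on an implied 131 of 841 bp. Tu2:609414345-609415226 had 831649 FPKM from 33.0 fragments, and Tu7:47480021-47480849 had 471286 FPKM from 46.0. These 3 ranked 200, 1334 and 995 by fragments. Tu7:253623369-253624345 differed from them, since its 162162 FPKM (160105 to 164219) rested on 24859 fragments, which ranked 4. Tu5:570040858-570041863 had 17650 FPKM from 2008 fragments and lay 1.72 kb from an annotated locus at 1452 FPKM. Tu7:5561019-5561977 had 11226 FPKM from 67.0 fragments. Just inside the limit on FPKM per fragment lay Tu5:12252125-12252443, at 773274 FPKM from 10.0 fragments or 77326 FPKM per fragment, with an implied length of 127 bp. The 29 loci just outside had 332006 to 347105 FPKM per fragment.

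The candidates together held 606465 of the 9863549 implied fragments summed over all listed loci, which was 6.15% (Wilson 95% interval 6.13 to 6.16). That sum was 40.02% of the 24648766 fragments to which the FPKM were scaled, as read from the relation of length to FPKM, and the candidates made up 2.46% of this larger total. Of the fragments in listed loci, annotated loci held 92.0% and the other unnamed loci 1.90%. Implied fragments are too low wherever limits are wider than counting error. Among annotated loci above 0 FPKM and of at least 300 bp, the lowest value was 2.04e-06. The intervals of these shares leave this out, and its effect on the shares was not tested. A few candidates held most of the fragments of all candidates. The first locus by fragments had 18.1% of the fragments of all candidates, the first 3 had 31.9%, the first 8 had 49.3% and the first 100 had 77.2%. Without the first locus the candidates held 5.10% (5.08 to 5.11) of the remaining fragments in listed loci.

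The most sequenced candidate, Tu1:554480071-554481248, was a contiguous locus of 1178 bp with 4965 FPKM (limits 4935 to 4995). It held 109489 implied fragments, or 1.11% of the fragments in listed loci and 0.444% of the scaling total. It lay alone, 89.0 kb from the nearest annotated locus, which was listed at 0 FPKM. Tu2:559010927-559012361 was a contiguous locus of 1435 bp with 53354 fragments, at 1879 FPKM (1863 to 1895), and lay 1.99 kb from a locus at 9.97 FPKM. Tu7:678049467-678049766, which spanned exactly 300 bp, held 30669 fragments at 30752 FPKM (30401 to 31104). It had the shortest span of the 8 loci with the most fragments and stood at the span limit of the choice.

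The other 5 of the 8 were spread over 4 chromosomes. Tu7:253623369-253624345, described above, was the gapped one among the 8. Tu7:249817888-249819357 had 23464 fragments at 802 FPKM and lay 352 kb from any annotated locus. Tu3:46787749-46788802 had 22373 fragments at 1178 FPKM and lay 1.69 kb from a locus at 93.6 FPKM. Tu2:226763970-226765541 had 18608 fragments at 586 FPKM, 541 kb away, and Tu6:25282471-25283382 had 16066 at 1037 FPKM, 3.03 kb away. Both of these had a nearest annotated locus at 0 FPKM. The loci with the most fragments were thus found both beside annotated loci and far from them.

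Position and the expression of neighbouring genes were not used to choose the loci, apart from the rule that they overlap none. The median distance to the nearest annotated locus was 23.3 kb (20.4 to 27.8), with quartiles of 3.41 and 122 kb and a range of 6 bp to 1366 kb. Within 1 kb lay 287 loci (12.6%), within 5 kb 688 (30.2%), within 20 kb 1085 (47.7%) and within 100 kb 1619 (71.1%), and 657 (28.9%) lay farther. The distances covered the whole scale from adjoining a gene to far out between genes.

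The candidates were nonetheless denser near annotated loci than the space there. The stretch within 1 kb made up 1.46% of the gene-free length and held 12.6% of the candidates, or 4.33 per gene-free Mb. From 1 to 5 kb the density was 1.89 per Mb, from 5 to 20 kb 0.665, from 20 to 100 kb 0.307 and over 100 kb 0.343. Density thus fell over the first 4 classes and was similar in the last 2.

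Close neighbours were also more often expressed. The nearest annotated locus had at least 1 FPKM at 140 of 287 candidates within 1 kb (48.8%, 43.1 to 54.5) and at 188 of 401 from 1 to 5 kb (46.9%, 42.1 to 51.8). It was 30.7% (26.4 to 35.4) from 5 to 20 kb, 31.5% (27.7 to 35.5) from 20 to 100 kb and 31.8% (28.4 to 35.5) beyond. The gene-free length in these classes had a nearest locus of at least 1 FPKM over 29.5, 29.5, 30.9, 34.2 and 38.5% of its extent. The intervals of the candidates treat loci as independent. By them, the share at the candidates stood above that of the surrounding space within 5 kb and below it over 100 kb. From 5 to 100 kb it did not differ beyond its interval. Over all distances it was 36.3% (34.4 to 38.3), against 35.3% of the gene-free length and 30.1% (29.7 to 30.6) of all listed annotated loci. Some candidates share a neighbour, as 1484 different annotated loci were the nearest of the 2276. Such candidates are not independent, so these intervals are likely too narrow and the comparisons are description only.

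**Figure D3:**
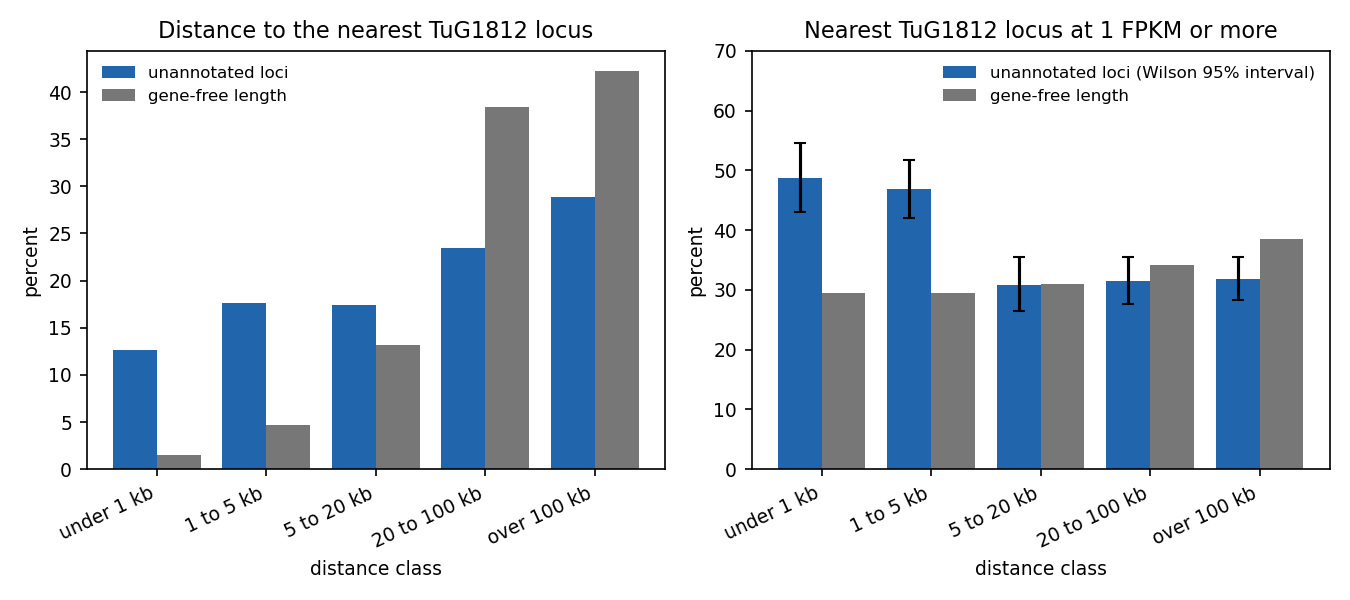
Distance of the 2276 unannotated loci to the nearest TuG1812 locus, as percent per distance class beside the percent of gene-free length (left), and the percent whose nearest TuG1812 locus had at least 1 FPKM, with Wilson 95% intervals, beside the same for gene-free length (right). The first 2 classes hold 12.6 and 17.6% of the loci on 1.46 and 4.68% of the length, and their neighbours are at 1 FPKM or more in 48.8 and 46.9%.

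The median FPKM of the candidates was similar at all distances, whereas the fragments rose with distance. The median FPKM was 13.2, 12.5, 13.4, 12 and 13.4 in the 5 classes from under 1 kb to over 100 kb, and the median fragments were 33.0, 38.0, 38.5, 40.7 and 45.7. The 450 candidates with at least 100 fragments had a median distance of 44.0 kb (31.9 to 53.5), against 23.3 kb (20.4 to 27.8) for all. Median span also rose over these classes, from 425 to 589 bp, and its part in this was not tested. Among candidates whose neighbour had at least 1 FPKM, the Spearman correlation of both FPKM values over loci was -0.19 (n = 140), 0.21 (n = 188), -0.05 (n = 122), -0.02 (n = 168) and -0.04 (n = 209) in the same order. These are descriptions over loci of one library, and they were negative in 4 classes and positive from 1 to 5 kb.

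Structure did follow distance. The contiguous share was 75.3% (69.96 to 79.9) within 1 kb, 72.8% (68.3 to 76.9) from 1 to 5 kb, 66.0% (61.2 to 70.5) from 5 to 20 kb, 64.4% (60.3 to 68.4) from 20 to 100 kb and 55.9% (52.0 to 59.6) beyond. The median distance was 16.5 kb (14.2 to 21.0) for contiguous loci and 48.1 kb (37.4 to 58.5) for gapped loci. Span, which rose over the same classes, was not held constant here. Gapped loci also had the higher FPKM, with a median of 18.3 (16.8 to 19.7) against 11.2 (10.6 to 11.8), and 48.0 against 37.0 fragments, but fewer fragments per kb of span, 56.1 against 85.2. The contrasts in FPKM and in fragments per kb follow at least in part from the definition. Implied lengths under 200 bp (24 of 24 loci gapped) and of 200 to under 300 bp (167 of 177) carry inflated FPKM. The span of a gapped locus also counts its gap.

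Among the 53 candidates with at least 1000 fragments, 3 lay nearest to an annotated locus. Tu5:615178683-615180219 lay 61 bp from TuG1812G0500005056.01 and had 175 FPKM (170 to 181) beside 6.81 FPKM at that locus. Tu3:442610491-442617261 lay 495 bp from TuG1812G0300002786.01 and had 53.9 FPKM (50.5 to 57.3) beside 10.7. Tu7:678049467-678049766, the 300-bp locus given above, lay 974 bp from a locus at 1.58 FPKM. In all 3 the unannotated locus had the higher FPKM, but these loci were picked for many fragments and their neighbours were not picked on level. Whether any of the 3 is an unannotated end of its neighbour cannot be told from the tables.

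The 4 candidates farthest from an annotated locus among those with at least 10 fragments lay near the middle of 2 chromosomes. Tu4:338837430-338838787, Tu4:338835677-338837117 and Tu4:338832480-338835040 lay 1365, 1363 and 1360 kb away, at 68.9, 17.5 and 11.4 FPKM from 36.6, 185 and 158 fragments. They formed a single run together with Tu4:338838396-338838787, the locus given 1.38 implied fragments above, which overlaps the first of them. Tu6:299756028-299756332 was a contiguous locus 1015 kb away, at 25 FPKM from 27.0 fragments.

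Many candidates lay close to one another. With gaps of at most 5 kb, the 2276 loci formed 1640 runs, of which 1235 were single loci and 405 held 2 or more. The 405 runs held 1041 loci (45.7%), whereas the median gap between neighbouring candidates was 793 kb. Joining loci at gaps of at most 1 kb, overlaps included, left 1876 units, so the 2276 loci are not as many separate transcripts. Intervals over loci count each of them singly and are likely too narrow.

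**Figure D4:**
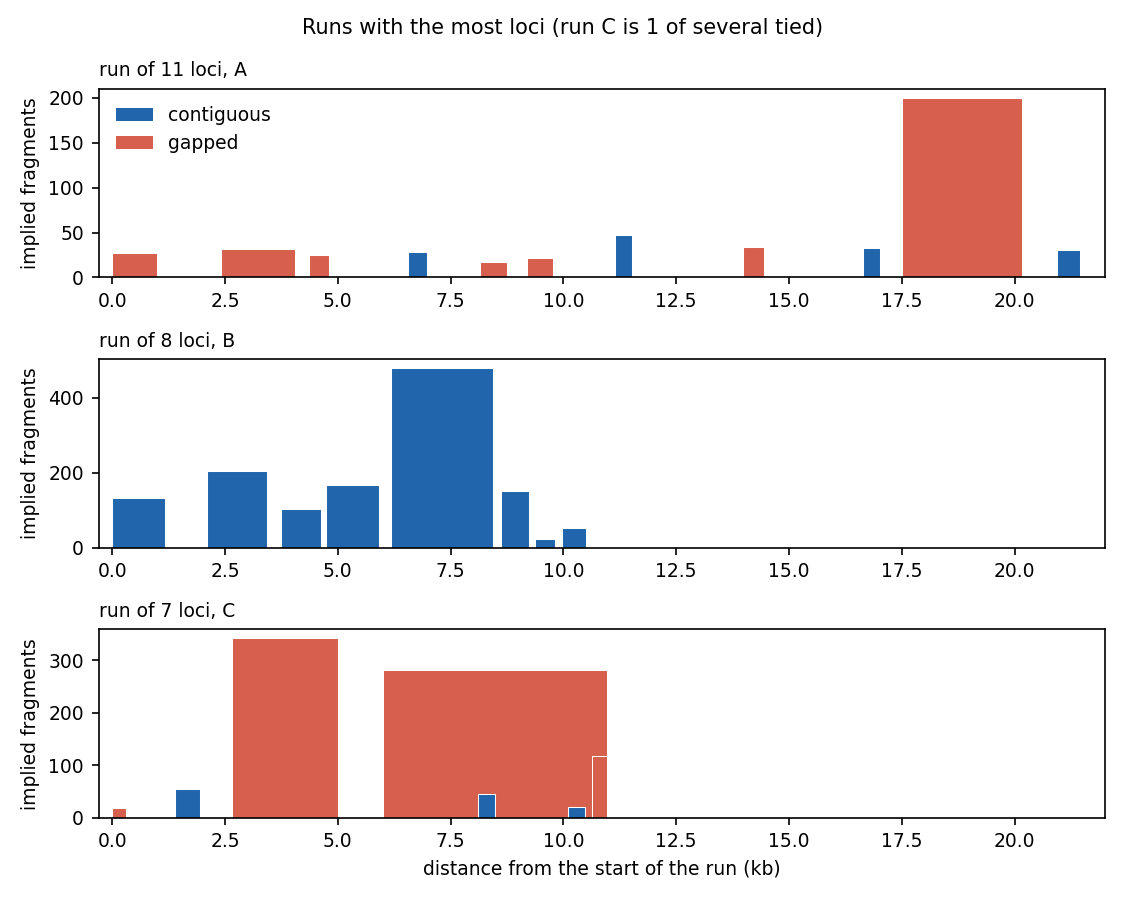
The runs of 11 and 8 unannotated loci and 1 of the 5 runs of 7, each drawn from its own start in kb. A box spans a locus, its height is the implied fragments, and its color marks contiguous and gapped loci. Run A holds 11 loci over 21.4 kb, run B 8 loci over 10.5 kb, all contiguous, and run C 7 loci over 11 kb, of which 3 smaller ones lie inside the span of a gapped one.

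The largest run, Tu1:281807953-281829400, held 11 loci that covered 42.5% of 21.4 kb, and it lay 336 kb from the nearest annotated locus, at 0.617 FPKM. Its loci had 5.75 to 1940 FPKM, but all except one held 17.0 to 47.0 fragments, and the exception held 200.0 of the 496 fragments of the run. The wide range of FPKM went with implied lengths of 177 to 1394 bp. The next run, Tu1:328108757-328119256, held 8 contiguous loci that covered 80.1% of 10.5 kb, with 5.57 to 18.3 FPKM and 1307 fragments. It lay 109 kb from an annotated locus at 73 FPKM. After these came 5 runs of 7 loci, of which 1 lay on Tu1, 3 on Tu5 and 1 on Tu7, with 248 to 919 fragments. The one described here came first in chromosome order. This run, Tu1:125395107-125406076, held 7 loci over 84.4% of 11 kb, with 7.01 to 93.0 FPKM and 879 fragments, 763 kb from a locus at 9.37 FPKM. None of the 3 described runs held an annotated locus.

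Along the chromosomes, the candidates were spread more evenly than annotated loci. The outer 20% at both ends of the chromosomes held 1060 candidates (46.6%, 44.5 to 48.6), 62.0% of annotated loci (61.5 to 62.5) and 52.7% (51.8 to 53.6) of annotated loci with at least 1 FPKM. The middle 20% held 18.4% (16.9 to 20.1) of candidates, 9.79% (9.49 to 10.1) of annotated loci and 12.8% (12.2 to 13.4) of those with at least 1 FPKM. None of these intervals overlapped between candidates and either set. Gapped loci lay in the outer 20% in 51.4% (48.0 to 54.9) of cases and contiguous loci in 44.0% (41.4 to 46.5), while gapped loci were also the farther from genes.

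In steps of 10% of the chromosome, the number of candidates per 100 annotated loci with at least 1 FPKM was 18.0 in the first step, rose to 39.0 and 36.1 in the fourth and the fifth, fell to 12.5 in the eighth and was 18.7 in the last. The peak went with few annotated loci, since those steps held 613 and 635 expressed ones against 1574 and 1693 at the ends. The median distance to an annotated locus was 10.8 kb in the first step, 118 kb in the fifth and 13.0 kb in the last. Candidates were therefore most frequent relative to expressed genes in the fourth and the fifth steps, where annotated loci were fewest.

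**Figure D5:**
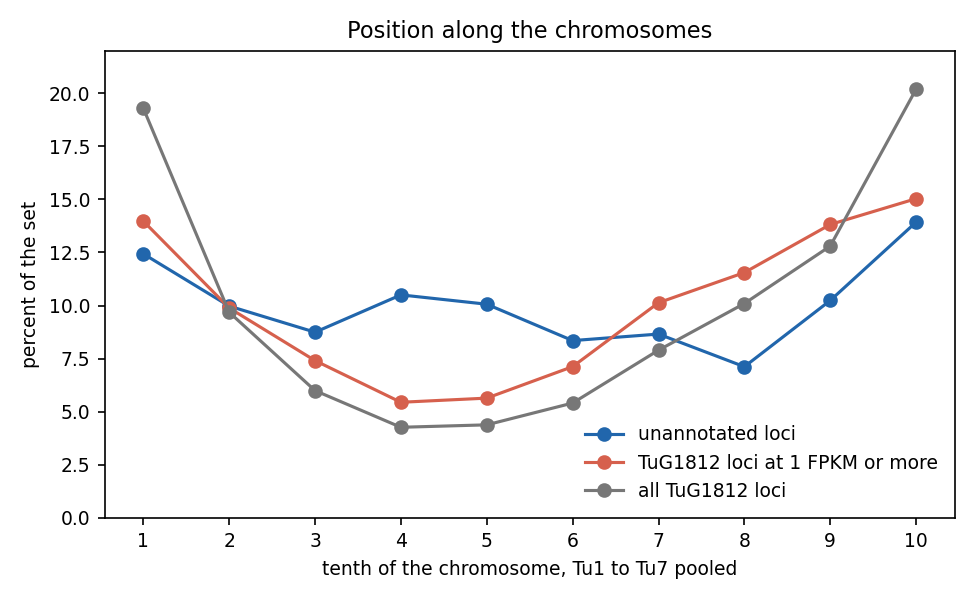
Percent of each set in 10 equal steps along the chromosomes, with Tu1 to Tu7 pooled and chromosome length taken as the last listed end. The unannotated loci stay between 7.12 and 13.9% per step, whereas all TuG1812 loci range from 4.26 to 20.2% and those at 1 FPKM or more from 5.44 to 15.0%.

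The 7 chromosomes carried similar numbers for their size. Tu1 to Tu7 held 288, 352, 377, 294, 358, 249 and 358 candidates, or 43.3 (Tu6) to 54.1 (Tu5) per 100 Mb and 18.7 (Tu6) to 21.3 (Tu4) per 100 annotated loci with at least 1 FPKM. Median FPKM ran from 11.5 on Tu1 (10.0 to 12.7) to 13.9 on Tu7 (12.5 to 15.6), and these intervals overlapped. The median distance to an annotated locus ran from 13.5 kb on Tu7 (9.59 to 19.3) to 40.5 kb on Tu1 (18.3 to 70.1), and these also overlapped. The interval of Tu7 lay just below that of Tu2 (19.7 to 38.7 kb), without overlap.

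The fragments were less evenly shared. Tu1 held 23.9% of the fragments of all candidates, Tu7 22.4%, Tu2 18.9% and Tu6 6.54%. On Tu1, 75.7% of them came from the single locus Tu1:554480071-554481248, and on Tu2, 46.6% from Tu2:559010927-559012361. On Tu7 the first locus held 22.6% of them, and 3 of the 8 loci with the most fragments lay there. The median fragments per locus stayed between 38.0 and 42.0 on all 7 chromosomes.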

How the data were processed

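The deposited values were FPKM per locus with lower and upper confidence limits, which the authors made with Cufflinks. The submitters' processing notes name CASAVA, TopHat2 2.0.12 and Cufflinks, and a maize build, B73 RefGen_v4. The sources used here do not name the wheat build. FPKM is scaled to an effective length, which inflates short transcripts. Starts in the tables count from 0 and are given here from 1. Of 3823 annotated loci under 600 bp at 0 FPKM, 53.2% had an end minus start divisible by 3, against 23.9% after adding 1. The members, the limits and the rules for named loci were chosen with earlier results of these data known. Loci were named as the 8 with the most fragments, 6 with the highest FPKM, 4 longest, 4 farthest, 3 nearest, the 3 largest runs (ties taken in chromosome order) and those at the limits.

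Implied fragments were (2 × FPKM/(upper limit − FPKM)) squared. The length relation came from 737 spans at which loci with whole fragment numbers agreed within 0.1%, and it was linear from 700 to 1500 bp. The contiguous threshold of 99.9% was set after seeing the data. Distances ran between nearest ends. Gene-free length is all chromosome length outside TuG1812 loci. Medians have 95% rank intervals and shares Wilson 95% intervals. Reads without molecular identifiers are not independent molecules. Alternatives changed the span limit, fragment limit, FPKM minimum, limit on FPKM per fragment, distance rule, level of the neighbour, joining and position rule. The steps for distance, overlap, gene-free length and the length relation were tested on simulated data. The simulated loci had given fragment numbers and a single transcript each, so the step from confidence limits to implied fragments was not tested. No sequence was used, and the maize gene table at hand was not applied to wheat. Tools were Python 3.11.15, numpy 2.4.6, pandas 2.3.3, scipy 1.17.1 and matplotlib 3.10.9.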

Additional observations from a re-analysis of the deposited data

How the results depend on the processing

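Of 48 values under alternatives, 30 stayed within the interval or within 1.5 times the main count and 18 moved. The count of 30 is no measure of robustness, since several alternatives hardly changed the loci. A minimum of 1 FPKM kept all 2276, so its values could not move. At least 10 fragments left 2273 loci, a limit of 1000 FPKM per fragment 2272 and no such limit 2305, and none of their values moved. With a span of at least 200 bp there were 3920 loci, with a median of 24.9 FPKM and a median distance of 15.6 kb. With at least 1000 bp there were 478, at 15.3 FPKM and 48.1 kb, with 49.8% in the outer 20%. The median distance was 37.4 kb without loci within 1 kb of an annotated locus, and 88.9 kb to the nearest annotated locus above 0 FPKM. Joining loci at gaps of up to 1 kb gave 13.9 FPKM and 20.02 kb. Counting neighbours above 0 FPKM gave 46.4%, and the outer 50 Mb at each end held 20.4% of the loci. Leaving out contiguous loci, an alternative added after seeing the data, left 795 loci at 18.3 FPKM and 48.1 kb, with 31.7% of neighbours at 1 FPKM or more and 51.4% in the outer 20%. These differences follow from which loci or neighbours each alternative counts. No paired analysis was possible because there is 1 wheat library and the results come from no test. Nearly all loci held at least 10 fragments, and loci with fewer were seldom listed.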

Other observations

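The 29 loci left out by the limit on FPKM per fragment spanned 310 to 28105 bp, with a median of 795 bp, and had an implied transcript length of 125 bp. They held 557 fragments in sum at a median of 6308230 FPKM.

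Unnamed loci of at least 300 bp that overlapped an annotated locus, of which 829 remained under the same limit, were contiguous in 94.5% (92.7 to 95.8), against 65.1% (63.1 to 67.0) of the candidates, but they were shorter, with a median span of 356 bp against 503.5. Under 500 bp the shares were 97.1% (95.6 to 98.2) and 86.3% (84.2 to 88.2), and at 500 to under 1000 bp 93.7% (88.4 to 96.6) and 61.3% (57.6 to 64.9). The median of all overlapping loci was 12.2 FPKM, against 12.8.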
